A study of Mus musculus with 2 samples.

Results

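The 7 genes described here are the transcription factors that carry a muscle stem cell to a muscle fibre nucleus, Pax7, Myf5, Myod1, Myog and Myf6, and the fusion proteins of the muscle cell membrane, Mymk (myomaker) and Mymx (myomixer). They were matched by symbol among the 32285 genes listed for each library, and all 7 were found. The data are single-nucleus RNA sequencing of the tibialis anterior, a muscle of the lower hind limb, taken from male mice aged 16 to 20 weeks that had chronic kidney disease and whose femoral artery had been tied 5 days earlier. There were 2 libraries, 1 labelled AHRfl/fl and 1 labelled AHRmKO, so every comparison between them is a comparison of 2 libraries with no replicate check and no test. Every interval below is a 95% interval that covers counting error only.

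The strain label is the same for both libraries: AHRtm3.1Bra/J, which carries a floxed gene for the aryl hydrocarbon receptor, bred to the line Tg(ACTA1-cre/Esr1*)2Kesr/J, in which a skeletal actin promoter drives a Cre recombinase fused to an oestrogen receptor domain. That promoter is active in muscle fibres, so satellite cells and blood-derived cells need not carry a deletion. The number of animals per library, the way kidney disease was brought about and any dosing to activate Cre are not stated in the labels. In all muscle nuclei together Ahr was at 34.8 CPM (UMIs of the gene per 1000000 UMIs of the nuclei summed) in the AHRfl/fl-labelled library and 35.2 in the AHRmKO-labelled library. In the fibre nuclei, where the promoter is active, it was at 4.72 (9 UMIs) and 5.37 (11 UMIs). The floxed part is an early exon and the libraries were read from the 3′ end of the transcript, so these counts do not check the label, and the libraries are named by their labels throughout.

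Adult muscle keeps quiescent stem cells, the satellite cells, under the membrane of each fibre. Pax7 marks them and Myf5 primes them for the muscle fate; after injury they divide, Myod1 commits them, and Myog starts the exit from the cell cycle and the contractile programme. Mymk and Mymx then merge the membranes of differentiating cells into a fibre, and Myf6 (also called MRF4) is the member of the family that persists in mature fibre nuclei.

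In GENCODE M21 (GRCm38), Pax7 (ENSMUSG00000028736) spans chr4:139737062-139833528 on the minus strand, a gene of 96467 bases. Myf5 (ENSMUSG00000000435) and Myf6 (ENSMUSG00000035923) are neighbours on the minus strand of chromosome 10, at chr10:107482908-107486134 and chr10:107492853-107494737, with 6718 bases between them. Myod1 (ENSMUSG00000009471) is at chr7:46376474-46379099 and Myog (ENSMUSG00000026459) at chr1:134289989-134292548, both on the plus strand. Mymk (ENSMUSG00000009214) is at chr2:27061636-27072179 and Mymx (ENSMUSG00000079471) at chr17:45600971-45602102, both on the minus strand. No other annotated gene overlaps any of them. Because the genes differ this much in length and the use of intronic reads is not given in the sources used here, levels are compared within a gene and never between genes.

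The promoters of Myog and Myf5 are shown because these genes followed opposite courses along the line, as the values below show. The sequences are RefSeq's for GRCm38.p6, the 250 bases before RefSeq's start, 5′ to 3′ on the gene's strand, and capitals mark each E-box, the CANNTG motif that the myogenic factors and many other basic helix-loop-helix proteins bind. Of the 7 members, 3 matched the promoter table (Pax7, Myf5 and Myog).
Myog (chr1:134289754-134290003, plus strand): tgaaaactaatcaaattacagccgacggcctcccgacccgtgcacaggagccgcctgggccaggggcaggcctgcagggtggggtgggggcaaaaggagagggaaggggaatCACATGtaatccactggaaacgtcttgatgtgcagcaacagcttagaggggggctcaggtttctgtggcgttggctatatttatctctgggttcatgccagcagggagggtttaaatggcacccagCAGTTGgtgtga
Myf5 (chr10:107486135-107486384, minus strand): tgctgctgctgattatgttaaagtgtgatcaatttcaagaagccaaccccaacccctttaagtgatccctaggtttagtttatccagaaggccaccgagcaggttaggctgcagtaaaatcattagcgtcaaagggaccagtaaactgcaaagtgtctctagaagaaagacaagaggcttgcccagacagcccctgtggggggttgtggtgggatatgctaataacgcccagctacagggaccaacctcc
The window searched ran on to 50 bases after the start, on both strands. Myog held 2 E-boxes, CACATG at -138 and CAGTTG at -12 from the start, and Pax7 and Myf5 held none. An E-box of any centre occurred in 72.3% of 32851 promoters of the same length. The variants CAGCTG (16.3% of promoters) and CACCTG (20.2%), which are each also counted as CANNTG, did not occur in any of these 3 windows. The GENCODE gene starts before RefSeq's start, so the last bases of the Myog window, CAGTTG among them, lie within the Myog gene as GENCODE gives it. These are matches of letters, and binding was not measured.

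Nuclei were barcodes with at least 2000 UMIs and at most 10% mitochondrial UMIs, after the highest doublet scores were left out: 17070 in the AHRfl/fl-labelled library and 7660 in the AHRmKO-labelled library, from 151788328 and 113737134 UMIs in all. The muscle line held 7708 nuclei (45.2%) and 4272 nuclei (55.8%), with median depths of 4374 and 3789 UMIs. Joint clusters were named from marker genes that include none of the 7, and the 7 were left out of the clustering. The classes were satellite cell or myoblast-like nuclei outside the cell cycle (2570 and 763 nuclei, here and below in the order AHRfl/fl-labelled, AHRmKO-labelled), the same in the cell cycle (1233 and 953), differentiating myocyte-like (1050 and 926), immature myonucleus-like (2466 and 1040) and myofibre-like (389 and 590). The cell cycle was called by cluster and not by nucleus. With nuclei thinned to 2000 UMIs, 12.3% and 21.4% of the class outside the cycle held at least 2 UMIs of 10 cell cycle genes. In the cycling class it was 90.8% in both libraries. Nearly every muscle cluster came mostly from 1 library, and such a cluster may stand for its library and not for a kind of nucleus. The libraries shared 43 barcodes of 2000 or more UMIs, 0.477% of those of the AHRmKO-labelled library. A cluster of 619 and 10 nuclei with a median of 7178 UMIs and 8 of 11 macrophage markers was left unnamed and out of the line; Pax7 was at 214 CPM in its AHRfl/fl-labelled nuclei.

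Barcodes with too few UMIs to be called nuclei also held these genes, and their levels are given first. They are called free RNA below, although RNA outside nuclei and poor nuclei cannot be told apart in them. In barcodes of 200 to under 500 UMIs Myog was at 549 CPM in the AHRfl/fl-labelled library and at 80.3 in the AHRmKO-labelled library. Mymk was at 576 and 79.8, Myod1 at 284 and 41.1, Mymx at 211 and 7.86, Myf6 at 33.4 and 2.70 and Myf5 at 37.8 and 10.0. All 6 were thus higher in the free RNA of the AHRfl/fl-labelled library, from 3.63-fold for Myf5 to 25.3-fold for Mymx. Pax7 went the other way, at 48.9 and 131 CPM. The barcodes of at most 100 UMIs gave smaller gaps: Myog was at 288 and 121 CPM, Mymx at 147 and 27.8, Myf5 at 29.1 and 17.2, and Pax7, at 137 and 124, was not higher in the AHRmKO-labelled library. Only the barcodes of 200 to under 500 UMIs were used for the subtraction below.

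Macrophage or monocyte-like nuclei, which do not belong to the muscle line, held these genes at a steady fraction of that level in 1 library. The macrophage level in the AHRfl/fl-labelled library was 17.4% of the free RNA level for Myod1, Myog, Myf6 and Mymk alike, 16.7% for Mymx, 15.3% for Myf5 and 26.8% for Pax7, and the 20 contractile genes together gave 18.6%. In the AHRmKO-labelled library the contractile genes gave 22.2%, Pax7 23.0%, Myod1 26.2%, Mymk 15.7%, Myog 14.8% and Mymx 13.04%. Myf5 gave 41.7% (30.8 to 55.1) there, and Myf6 had 1 UMI. Of the 7 members in the AHRfl/fl-labelled library, Pax7 (23.9 to 30.02) thus stood apart from the others. The macrophage level is printed beside the values below as a background. Other non-muscle nuclei differed: in the AHRfl/fl-labelled library Myog was at 53.7 CPM in adipocyte-like nuclei, at 79.9 in fibroblast-like ones, at 107 in endothelial-like ones and at 1050 in the erythroid-like ones (144 UMIs), beside 95.4 in macrophage-like nuclei. Pax7 was at 39.4 and 42.2 in endothelial-like nuclei. The background is therefore not 1 level for all classes.

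**Figure D1:**
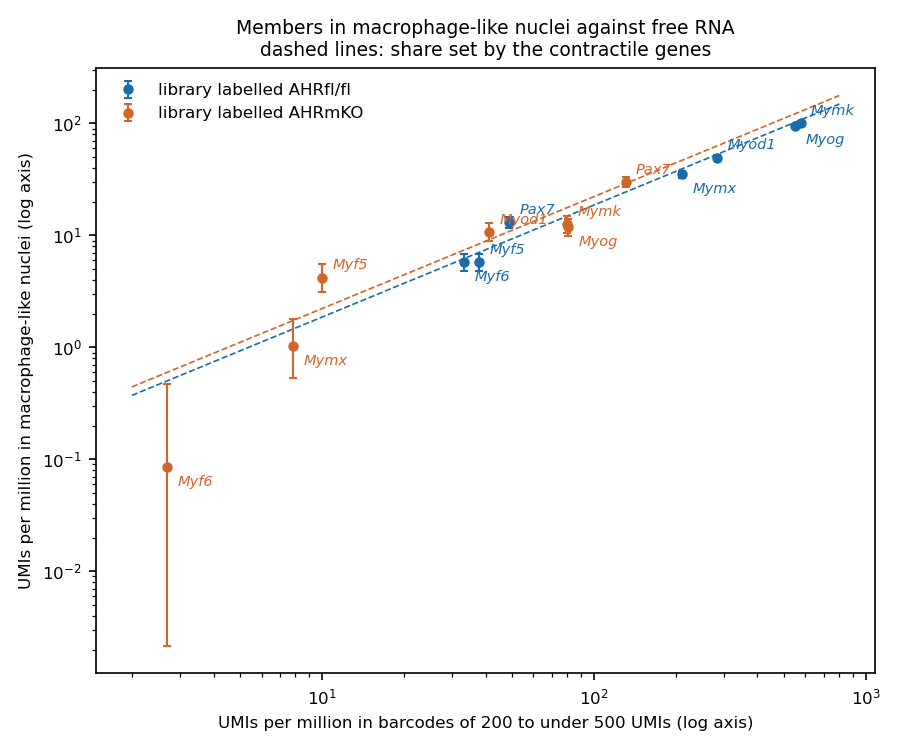
Each point is a member in 1 library, its level in macrophage-like nuclei (vertical axis, CPM, log scale) against its level in barcodes of 200 to under 500 UMIs (horizontal axis, CPM, log scale); bars are 95% Poisson intervals and dashed lines the share set by the contractile genes, 18.6% and 22.2%. The AHRfl/fl-labelled points lie near their line, other than Pax7 above it (26.8%), with Myog and Mymk at the top right, while the same genes of the AHRmKO-labelled library lie lower on both axes.

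Pax7, the paired-box factor that defines the satellite cell, was highest in the satellite-like nuclei of both libraries. Outside the cycle it was at 788 CPM (771 to 806) in the AHRfl/fl-labelled library and 1067 in the AHRmKO-labelled library, against 13.1 and 30.1 in macrophage-like nuclei. In cycling satellite-like nuclei it was at 650.4 (631 to 670.2) and 713. Every later class was lower in each library: Pax7 was at 36.7 and 116 in differentiating myocyte-like nuclei, 32.5 and 35.0 in immature myonucleus-like nuclei and 17.3 and 28.3 in myofibre-like nuclei. In the AHRmKO-labelled library the immature and myofibre-like levels were 1.17 times (0.98 to 1.39) and 0.94 times (0.70 to 1.25) the macrophage level, so they did not differ from background beyond counting error. The differentiating and immature levels of the AHRfl/fl-labelled library were not above its endothelial-like level. Satellite-like nuclei outside the cycle held 61.1% and 45.1% of the line's Pax7 UMIs and cycling ones 33.6% and 45.5%.

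Pax7 was not even within the class outside the cycle. In the AHRfl/fl-labelled library it was at 1021 CPM in the larger cluster (1812 nuclei) and at 273 in a second one (739 nuclei), where 5 of 10 differentiating myocyte markers were also raised. In that second cluster Myod1 was at 117, Myog at 163 and Mymk at 156 CPM, against 51.5, 87.5 and 86.2 in the larger cluster. Almost all AHRmKO-labelled nuclei of the class were in 1 cluster (717 nuclei), with Pax7 at 1093, Myod1 at 22.4, Myog at 18.1 and Mymk at 27.4. The class thus had a different make-up in each library.

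Myf5, the first of the myogenic helix-loop-helix factors in activation, was also highest in the satellite-like classes. It was at 51.8 and 57.9 CPM in satellite-like nuclei outside the cycle and at 50.8 and 47.0 in cycling ones, with overlapping intervals in all 4. Those levels were 8.77 to 13.8 times the macrophage level of 5.79 and 4.18. From the differentiating class on, Myf5 was at 5.60 and 5.58, then 6.68 and 3.97, then 11.0 and 6.84 CPM. Only the myofibre-like value of the AHRfl/fl-labelled library stood above its macrophage level there (1.90 times, 1.14 to 3.03, from 21 UMIs).

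**Figure D2:**
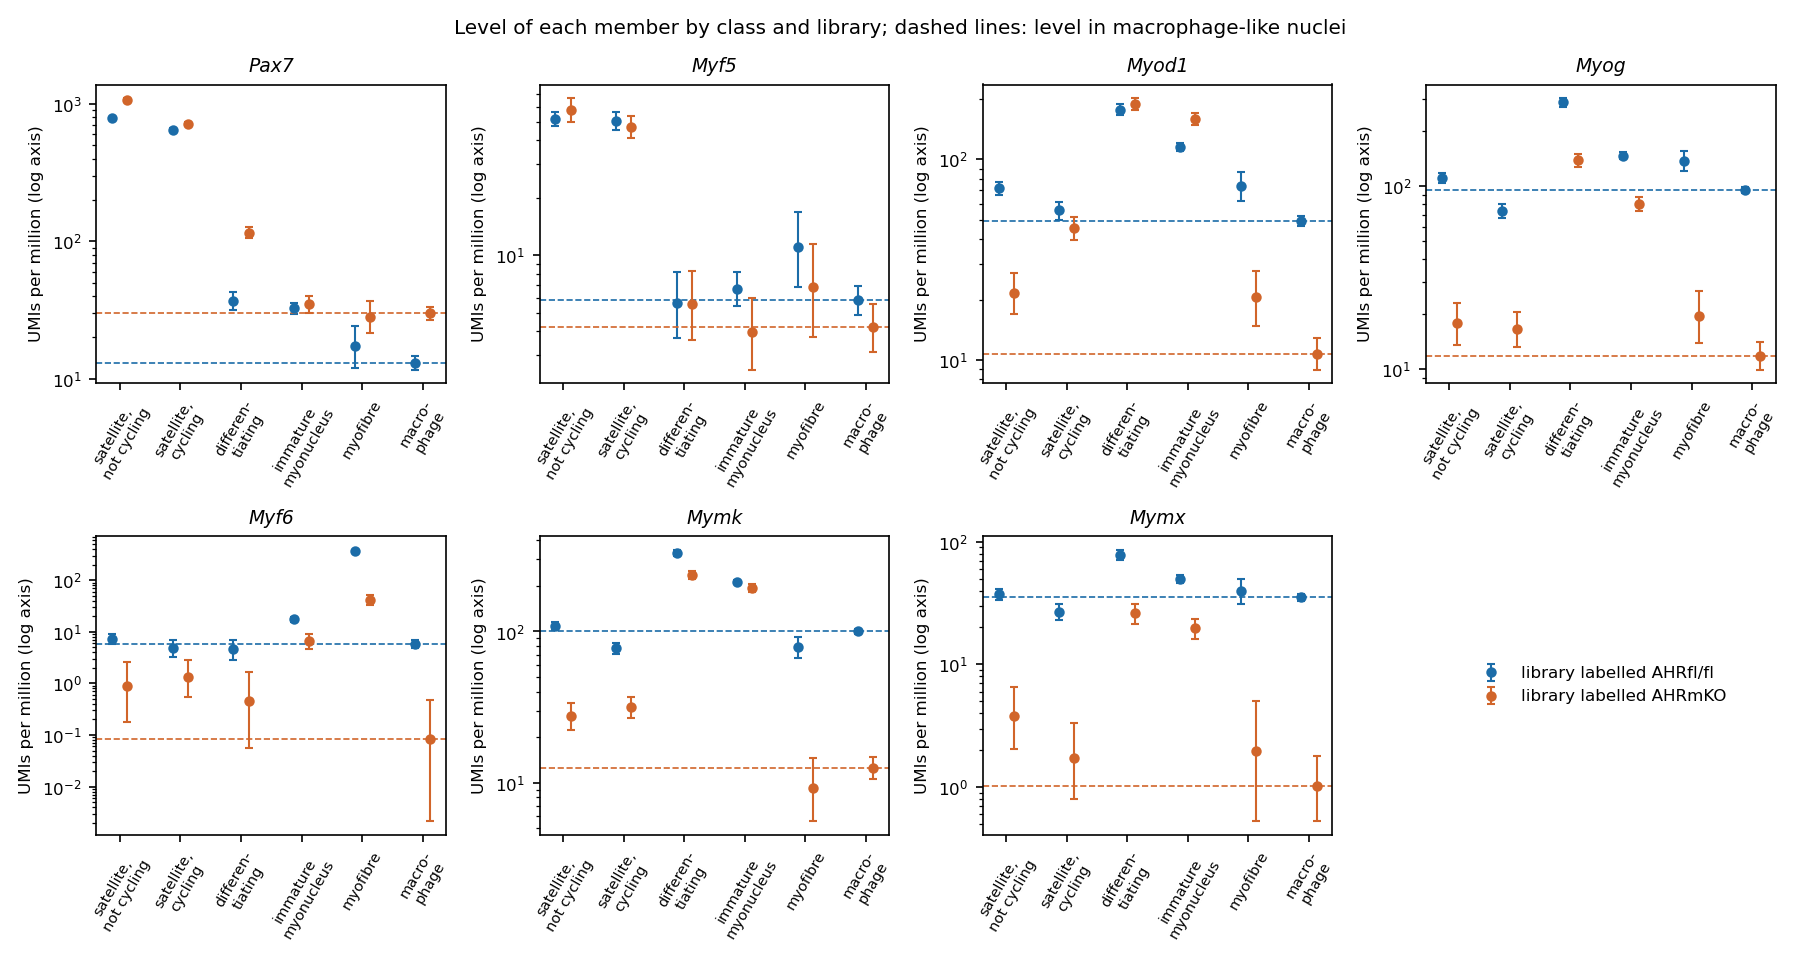
Each panel shows 1 gene: its level in CPM (vertical axis, log scale, a range of its own in each panel) in the 5 classes of the line and in macrophage-like nuclei, by library, with 95% Poisson intervals; dashed lines repeat the macrophage level. Pax7 and Myf5 are high on the left, Myod1, Myog, Mymk and Mymx in the middle and Myf6 in myofibre-like nuclei, and the AHRfl/fl-labelled points of Myog and Mymk in satellite-like nuclei sit near their dashed line.

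Myod1, the factor of commitment, peaked in differentiating myocyte-like nuclei, at 177 CPM (166 to 190) in the AHRfl/fl-labelled library and 189 (176 to 202) in the AHRmKO-labelled library. Immature myonucleus-like nuclei followed with 116 and 159. In satellite-like nuclei outside the cycle it was at 71.9 and 21.7 and in cycling ones at 55.6 and 45.3, against a macrophage level of 49.5 and 10.8. Cycling satellite-like nuclei were therefore 1.12 times background (0.997 to 1.27) in the AHRfl/fl-labelled library and 4.21 times (3.38 to 5.27) in the AHRmKO-labelled library, where cycling nuclei also stood above those outside the cycle. In myofibre-like nuclei Myod1 was at 73.5 and 20.5.

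Myog, the factor that starts terminal differentiation, was also highest in the differentiating class, with a wider gap between the libraries. It was at 287 CPM (272 to 303) and 138 (127 to 149.8) in differentiating myocyte-like nuclei and at 146 (140 to 153) and 80.1 in immature myonucleus-like nuclei. In myofibre-like nuclei it was at 137 (121 to 155) and 19.5, and the AHRfl/fl-labelled interval overlapped that of the immature class. In the satellite-like classes it was at 111 and 17.8 outside the cycle and 73.5 and 16.6 within it, beside a macrophage level of 95.4 and 11.9. Outside the cycle those are 1.16 times (1.08 to 1.25) and 1.504 times (1.09 to 2.05) the macrophage level, above it by more than counting error. The AHRfl/fl-labelled excess came from the cluster of 739 nuclei, since the larger cluster, at 87.5, was below the macrophage level. Within the cycle they are 0.77 times (0.70 to 0.85) and 1.40 times (1.06 to 1.85). The highest class was thus 3.01 times the macrophage level in the AHRfl/fl-labelled library and 11.6 times in the AHRmKO-labelled library.

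The fusion genes moved along the line with Myog. Mymk, the multipass protein needed on both fusing membranes, was at 331 and 237 CPM in differentiating myocyte-like nuclei and at 212 and 194 in immature myonucleus-like nuclei, against 100.1 and 12.5 in macrophage-like nuclei. Mymx, the microprotein that completes fusion, was at 78.0 and 26.0 and then 49.5 and 19.7, against 35.2 and 1.02. In myofibre-like nuclei neither stood above background by more than counting error, Mymk at 78.7 and 9.28 and Mymx at 39.4 and 1.95 (4 UMIs). Of the line's Mymk UMIs, 24.9% and 42.2% were in the differentiating class and 48.0% and 46.4% in the immature class.

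Myf6, the factor of the mature fibre, was the only member with its highest level in myofibre-like nuclei in both libraries, at 363 CPM (692 UMIs) in the AHRfl/fl-labelled library and 42.0 (86 UMIs) in the AHRmKO-labelled library. Immature myonucleus-like nuclei held 17.4 and 6.56, and no other class of the line was above 7.27. Myofibre-like nuclei held 64.6% and 63.2% of the line's Myf6 UMIs. The macrophage level was 5.79 and 0.0854, the second from 1 UMI.

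The myofibre-like class was made of different clusters in the libraries. Of the AHRfl/fl-labelled nuclei, 388 of 389 were in a cluster led by Trp63, Trim63 and Fbxo32, of which Trim63 and Fbxo32 encode muscle ubiquitin ligases of protein breakdown. Of the AHRmKO-labelled nuclei, 64 were in that cluster, with Myf6 at 230.0 CPM (175 to 297) beside 365 (338 to 393). The other 526 were in a cluster led by Agbl1 and Mylk4, with Myf6 at 15.6. Within the AHRmKO-labelled library Myf6 was therefore higher in the cluster with the ubiquitin ligase genes, and the AHRfl/fl-labelled library had 1 nucleus outside it, too few to compare.

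Differences between the libraries are given as the log2 ratio of the AHRmKO-labelled library over the AHRfl/fl-labelled library, with 0.5 CPM added to both. In all satellite-like nuclei together, Pax7 had 733 and 854 CPM (12095 and 7329 UMIs), with a log2 ratio of 0.22 (0.18 to 0.26), and Myf5 at 51.4 in both, a log2 ratio of -0.00 (-0.17 to 0.17). Myod1 was at 65.4 and 35.9 (log2 ratio -0.86), Mymk at 95.8 and 29.9 (-1.66), Myf6 at 6.30 and 1.16 (-2.03), Myog at 96.1 and 17.1 (-2.45) and Mymx at 33.2 and 2.56 (-3.46). Thus 4 of 7 were at least 2-fold lower in the AHRmKO-labelled library and none at least 2-fold higher, where 15.9% of 15285 genes were that much lower and 5.16% higher (21.1% in either direction). The median of the members was -1.66 and that of all genes -0.08. In macrophage-like nuclei the median of the members was -2.95. The direction for Pax7 turned when each library was clustered alone (-0.15) and at a Leiden resolution of 0.5 (-0.13). The mix of states differed there: clustered alone, satellite-like nuclei held 0 cycling ones in the AHRfl/fl-labelled library and 877 in the other. At resolution 0.5 the AHRmKO-labelled library had 33 outside the cycle and 745 within it. Taken by state, the Pax7 ratio was above 0 in all 11 alternatives outside the cycle and all 10 within it.

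The 4 lower members were Myog, Myf6, Mymk and Mymx, which in the AHRfl/fl-labelled library were at 95.4, 5.79, 100.1 and 35.2 CPM in macrophage-like nuclei, close to their satellite levels. Their log2 ratios in macrophage-like nuclei were -2.95 for Mymk, -4.55 for Mymx, -2.96 for Myog and -3.43 for Myf6 (135 UMIs and 1 UMI). When the free RNA profile was subtracted in the share given by the contractile genes, Myog was left at 0 in both libraries and Mymk at 0 and 12.2 CPM, and Myod1 turned to 12.6 and 26.8 (log2 ratio 1.06). Mymk (4.67), Mymx (1.40) and Myf6 (0.86) turned too, from net levels at or near 0 in the AHRfl/fl-labelled library. In the AHRmKO-labelled library Mymx, at 2.56 (1.61 to 3.88) less 1.74, and Myf6, at 1.16 (0.56 to 2.14) less 0.60, were within counting error of 0. Pax7 (724 and 825, 0.19) and Myf5 (44.4 and 49.1, 0.15) hardly moved. After subtraction outside the cycle alone, Myf6 (1.06 and 0.28, -0.998) was within counting error of 0 in both libraries. Myod1 (19.1 and 12.5, log2 ratio -0.59) and Myog (8.89 and 0.048, -4.10) were left lower there, but neither differed beyond counting error. For Myod1 the levels were 71.9 (66.7 to 77.4) less 52.8 and 21.7 (17.0 to 27.2) less 9.12. For Myog the AHRfl/fl-labelled level was 111 (104.6 to 118) less 102. For Myod1 and Myog this rests on the AHRfl/fl-labelled cluster of 739 nuclei with raised differentiation markers: in the larger cluster of 1812 nuclei Myod1 (51.5) and Myog (87.5) were under the subtracted levels of 52.8 and 102, while the main AHRmKO-labelled cluster had Myod1 at 22.4 beside 9.12 subtracted. The size of the Myog ratio is not settled, since 17.8 CPM (13.7 to 22.9) less 17.8 subtracted left the AHRmKO-labelled value near 0. Macrophage-like nuclei of that library held Myog at 11.9 CPM, so more was subtracted than they held. The same amount was taken off in all its satellite-like nuclei (17.1 CPM). In the class outside the cycle as a whole Mymk (0.79 and 9.81) and Mymx (0 and 2.06) were higher after subtraction. The direction for these genes in satellite-like nuclei thus depended on the class and on the subtraction.

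By state of the cycle, 5 of 7 members were at least 2-fold lower in the satellite-like nuclei outside the cycle (15.4% of all genes, 5.78% higher and 21.2% in either direction) and 4 of 7 in the cycling ones (14.4% lower, 5.58% higher, 20.0% in either), with medians of -1.95 and -1.28 beside -0.04 and -0.07 over all genes. None was at least 2-fold higher in either class. The members' median in macrophage-like nuclei was -2.95. After subtraction of free RNA none of the 4 was lower in cycling nuclei: Myog and Mymx were at 0 in both libraries and Mymk (0 and 13.8) was higher. Myf6 (0 and 0.76, the second from 7 UMIs) was within counting error of 0 in both. Pax7 was 1.35-fold higher outside the cycle and 1.10-fold higher within it. Outside the cycle the main clusters of the libraries were closer, at 1021 (997 to 1046) and 1093 (1057 to 1131), and the second AHRfl/fl-labelled cluster was at 273.

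Differentiating myocyte-like nuclei differed in Pax7, Myog and Mymx. Pax7 had 36.7 and 116 CPM (177 and 499 UMIs), with a log2 ratio of 1.65 (1.41 to 1.91), and Myod1 at 177 and 189, a ratio of 0.09 (-0.05 to 0.23). Myog had a ratio of -1.05 (-1.20 to -0.91), Mymk of -0.48 (-0.60 to -0.37) and Mymx of -1.57 (-1.90 to -1.28). Over 11 alternatives the ratio of Myog ran from -2.05 (Leiden resolution 0.5) to -0.28 (3 times as many doublets left out), below 0 in each but short of 2-fold in 6 of them. That of Mymx was also below 0 in each, from -2.51 to -0.66. Of the 6 members with at least 30 UMIs, 1 was at least 2-fold higher (7.68% of all genes) and 2 lower (13.2%; 20.8% in either direction), with a median of -0.24 beside 0.01 over all genes. After subtraction of free RNA the ratios were 1.64 for Pax7, 0.53 for Myod1, -0.62 for Myog, -0.03 for Mymk and -0.66 for Mymx, so Myog and Mymx were still lower, and Mymk was nearly level. Mymk turned higher with 3 times as many doublets left out (0.078) and with classes taken per nucleus from markers (0.13). The ratio of Pax7 was -0.071 and -0.37 with minimums of 1000 and 4000 UMIs and to -0.58 with no mitochondrial limit. The nuclei of this class were 1017 of 1 cluster in the AHRfl/fl-labelled library and 925 of another in the AHRmKO-labelled library.

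In immature myonucleus-like nuclei Myod1 was higher in the AHRmKO-labelled library, at 159 against 116 CPM, a log2 ratio of 0.46 (0.34 to 0.58). Mymk was close, 194 against 212 (-0.13), Myog lower (-0.87), and Myf6 (-1.34) and Mymx (-1.31) at least 2-fold lower, 2 of 7 members (17.2% of all genes, 5.44% higher and 22.6% in either direction). The members' median was -0.68 and that of all genes -0.14. After subtraction of free RNA, Myod1 (62.8 and 150.05), Myog (44.1 and 62.3), Mymk (105 and 176) and Mymx (10.3 and 17.9) were higher in the AHRmKO-labelled library, Myf6 (11.2 and 5.96, log2 ratio -0.86) was still lower and Pax7 (23.4 and 6.03, -1.87) turned lower. The direction for Myog, Mymk and Mymx in this class thus turned with the treatment of free RNA. The 102 CPM of Myog subtracted in the AHRfl/fl-labelled library was more than its macrophage-like (95.4), fibroblast-like (79.9), cycling satellite-like (73.5) and adipocyte-like nuclei (53.7) held. Endothelial-like (107) and erythroid-like nuclei (1050) held more. The share was set in macrophage-like nuclei, of median 2892 UMIs beside 5384 in this class, and its fit to this class was not tested. Myod1 turned lower with a minimum of 1000 UMIs (-2.06, from 20 nuclei in the AHRmKO-labelled library), with 3 times as many doublets left out (-0.10) and with no doublet removal (-7.81, from 3 nuclei in the AHRmKO-labelled library), and Myf6 was level (0.042) with 3 times as many doublets left out. Pax7 after subtraction was also lower in the AHRmKO-labelled library outside the muscle line, in macrophage-like (4.02 and 1.03) and endothelial-like nuclei (30.3 and 13.2).

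In the AHRfl/fl-labelled library the immature class held 2 clusters that differed in these genes. A cluster of 1270 nuclei had Myod1 at 155, Myog at 191, Mymk at 267 and Myf6 at 9.002 CPM. The other, of 1166 nuclei, had Myod1 at 74.5, Myog at 98.8, Mymk at 156 and Myf6 at 26.2. Myf6 was thus higher where the other 3 were lower, with no overlap of the intervals. In the cluster of 1166 nuclei Myog (91.7 to 106) did not stand above the macrophage level of 95.4. The class of the AHRmKO-labelled library was a single cluster of 1038 nuclei, with Myod1 at 160.0, Myog at 80.5, Mymk at 195 and Myf6 at 6.60. The lower Myf6 of that library after subtraction rested on the AHRfl/fl-labelled cluster of 1166 nuclei. In the cluster of 1270 nuclei 6.22 of the 9.002 CPM was subtracted, and in the AHRmKO-labelled cluster 0.60 of the 6.60.

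In myofibre-like nuclei Myf6 had a log2 ratio of -3.10 (-3.45 to -2.79), and subtraction of free RNA left it at -3.09. This ratio compares classes made of different clusters, as given above. In the cluster with nuclei of both libraries (388 and 64) Myf6 was at 365 and 230.0 CPM. In the cluster of the other 526 AHRmKO-labelled nuclei it was at 15.6. For the whole class Myf6 was lower in the AHRmKO-labelled library under all 11 alternatives run, from -4.21 to -1.01, the smallest when each library was clustered alone. In all, 5 of 7 members were at least 2-fold lower there (16.8% of all genes, 10.4% higher and 27.2% in either direction), with a median of -2.78 beside -0.07 over all genes. The other 4 were Myod1, Myog, Mymk and Mymx, whose AHRfl/fl-labelled levels were 0.79 to 1.49 times the macrophage level. Of these, Myod1 (1.24 to 1.77) and Myog (1.26 to 1.63) stood above it by more than counting error. After subtraction Myog was still lower, at 34.8 and 1.74, the second within counting error of 0. Myod1 was left at 20.7 and 11.4, which did not differ beyond counting error. Its levels were 73.5 (61.8 to 86.7) less 52.8 and 20.5 (14.8 to 27.7) less 9.12. Mymk and Mymx were left at or near 0 in both libraries. Myog was below 0 in all 11 alternatives, from -3.98 to -1.19. Myod1 and Mymk turned higher with a minimum of 1000 UMIs (0.051 and 0.36) and with no doublet removal (0.49 and 0.67). Under these settings the AHRmKO-labelled class was another set of nuclei, 1859 and 1540 in place of 590, and the immature class held 20 and 3.

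**Figure D3:**
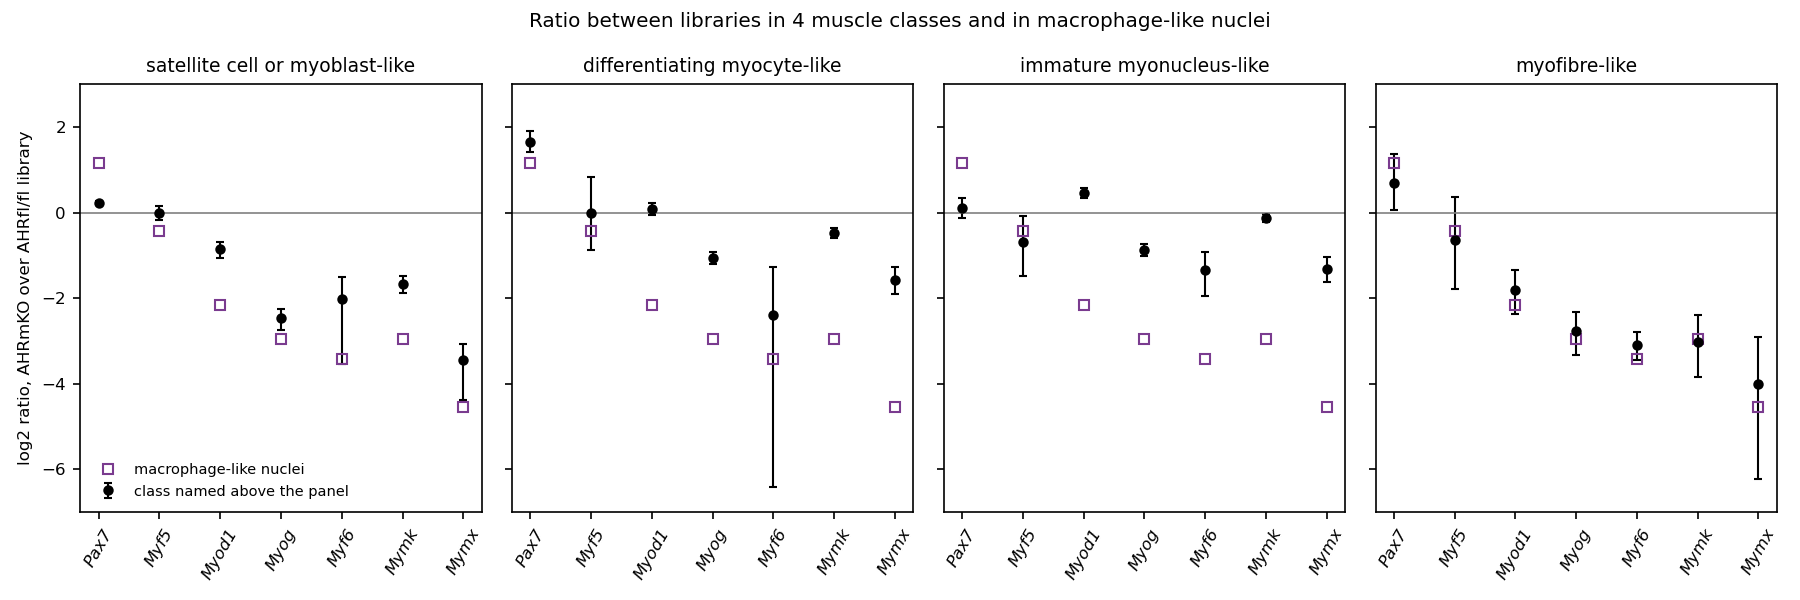
Log2 ratio between the libraries (vertical axis, library labelled AHRmKO over library labelled AHRfl/fl) for each member in 4 classes (filled points, 95% intervals from the counts) and in macrophage-like nuclei (open squares, the same in every panel). In satellite-like and myofibre-like nuclei Myog (-2.45 and -2.78) lies near its square; in differentiating and immature nuclei Myod1 (0.09 and 0.46) and Mymk (-0.48 and -0.13) stand well above their squares at -2.15 and -2.95.

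To place nuclei along the line without clusters, each was thinned to 2000 UMIs and given the share of those UMIs from 20 contractile genes, none of them a member. The median share was 0.70% and 0.95% in satellite-like nuclei outside the cycle, 2.30% and 4.57% in differentiating, 3.95% and 8.40% in immature and 3.75% and 10.4% in myofibre-like nuclei. Macrophage-like nuclei had 0.50% and 0.15%. Much of the share came from Ttn, the titin gene, at 3182 and 7688 CPM in satellite-like and 18158 and 49232 in immature nuclei, while Mylpf (355 and 21.3) and Acta1 (520.2 and 61.4) went the other way in satellite-like nuclei, so the same share does not stand for the same mix of genes in both libraries. Pax7 in the AHRfl/fl-labelled library went from 880.2 CPM below a share of 0.5% to 829, 349, 37.1 and 26.7 in the bins up to 1%, 2%, 4% and 8%. In the AHRmKO-labelled library it went from 980.1 to 992, 753, 384 and 71.5, and to 29.7 above 8%. Pax7 thus fell later along the share in the AHRmKO-labelled library, whose shares also reached further: 1127 of its nuclei were above 8%, and 10 in the AHRfl/fl-labelled library.

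The differentiation genes rose over the bins where Pax7 fell. Macrophage levels of Myod1, Myog and Mymk were 49.5, 95.4 and 100.1 in the AHRfl/fl-labelled library and 10.8, 11.9 and 12.5 in the other. In the AHRfl/fl-labelled library the first bin of each, and the second of Myog and Mymk, did not stand above that background by more than counting error. Nor did the first bin of Myog and Mymk and the second of Myog in the AHRmKO-labelled library. In the AHRfl/fl-labelled library Myod1 went from 47.7 to 67.2, 112, 151 and 116, Myog from 66.5 to 100.7, 196, 205 and 144, and Mymk from 71.1 to 97.5, 175, 263 and 209. In the AHRmKO-labelled library Myod1 went from 43.0 to 28.0, 49.6, 112, 195 and 121 and Mymk from 16.8 to 29.0, 47.9, 122, 204 and 145. Myog went from 9.43 to 10.4, 31.9, 91.1, 90.8 and 73.2 in that library. Among bins of at least 20 nuclei, each had its highest value at 2 to 4% in the AHRfl/fl-labelled library and Myod1 and Mymk at 4 to 8% in the AHRmKO-labelled library. Myog was level there over those bins, at 91.1 and 90.8. Myf6 was highest in the last bin of at least 20 nuclei in both, from 5.58 to 57.9 and from 0 to 20.9.

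**Figure D4:**
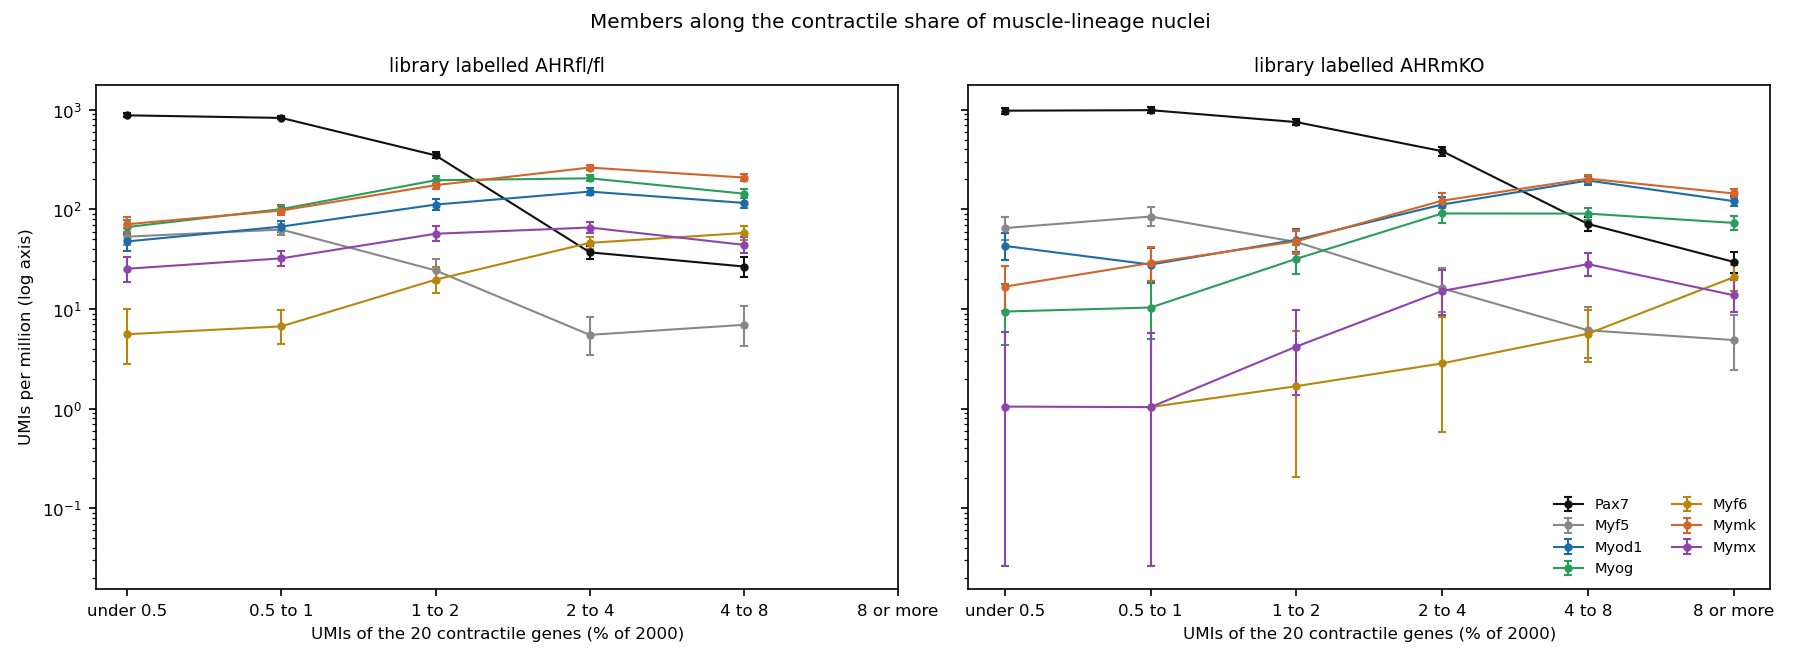
Level of each member (vertical axis, CPM, log scale) in muscle-line nuclei binned by the share of 2000 UMIs from 20 contractile genes (horizontal axis, percent), by library, with 95% Poisson intervals; bins under 20 nuclei and values of 0 are not drawn. Within each line, Pax7 falls from 880.2 and 980.1 to 26.7 and 29.7 while Mymk, Myod1 and Myog rise and then level or decline; the height of different genes is not comparable.

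Detection per nucleus was compared after the same thinning. Pax7 had a UMI in 66.5% (64.6 to 68.3) and 76.0% (72.8 to 79.0) of satellite-like nuclei outside the cycle, against 2.27% and 4.50% of macrophage-like nuclei, and in 78.6% and 88.5% before thinning, at median depths of 3517 and 3561 UMIs (macrophage-like 2892 and 3260). In differentiating nuclei it was seen in 7.33% and 16.7%. Myf5 was seen in 10.5% and 11.5% of the satellite-like nuclei outside the cycle, against 1.32% and 0.655% (before thinning 16.8% and 19.1%). Most satellite-like nuclei thus had no Myf5 UMI at this depth.

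Myog was seen in 42.3% and 22.7% of differentiating nuclei and 25.8% and 14.0% of immature nuclei, against 18.6% and 2.74% of macrophage-like nuclei (before thinning 67.9% and 40.1% of differentiating nuclei, at 4236 and 3766 UMIs). Its share in satellite-like nuclei outside the cycle, 19.2% and 3.01%, was within the interval of the macrophage share in each library, although its level there stood slightly above the macrophage level, as given above. Mymk was seen in 46.7% and 34.1% of differentiating nuclei against 19.3% and 2.62%. Mymx was seen in 14.7% and 5.18% against 7.34% and 0.123%. Myod1 was seen in 29.6% and 31.7% of differentiating nuclei against 9.96% and 1.60%. Myf6 was seen in 47.8% (42.8 to 52.9) and 6.10% (4.31 to 8.35) of myofibre-like nuclei against 1.30% and 0.0409%.

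Pairs of members in the same nucleus, again at 2000 UMIs, fell into 3 kinds. Pax7 and Myf5 occurred together: Myf5 was seen in 11.7% (10.5 to 12.9) and 10.4% (8.83 to 12.1) of muscle-line nuclei with Pax7 and in 2.18% and 2.38% of those without. Within satellite-like nuclei outside the cycle the same shares were 13.4% against 4.76% in the AHRfl/fl-labelled library, and 12.4% (9.84 to 15.4) against 8.74% (5.08 to 13.8) in the AHRmKO-labelled library, where the intervals overlapped. Nuclei differ in depth before thinning and in class, and both are shared by the genes of a pair.

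Over the whole line Myod1, Myog and Mymk were seen less often in nuclei with Pax7. Myod1 was seen in 11.4% and 7.76% of nuclei with Pax7 and 20.8% and 21.6% without, and Mymk in 16.9% and 9.17% with and 32.5% and 22.1% without. Myog was seen in 17.7% (16.3 to 19.2) and 4.51% (3.49 to 5.73) of nuclei with Pax7, beside 18.6% (17.6 to 19.5) and 2.74% (2.13 to 3.47) of all macrophage-like nuclei. The share in the AHRfl/fl-labelled library lay within the macrophage interval. In the AHRmKO-labelled library it was above it, and 40.6% of the 64 nuclei with both were in the differentiating class. Macrophage-like nuclei held Myod1 in 9.96% and 1.60%. In cycling satellite-like nuclei Myod1 was seen in 6.12% (4.53 to 8.06) and 6.43% (4.59 to 8.72) of nuclei with Pax7 and in 14.2% (11.2 to 17.7) and 13.3% (9.94 to 17.2) of those without, and the intervals did not overlap in either library. In the AHRfl/fl-labelled nuclei of this class the share with Pax7 was under the macrophage share. Myog in that class differed with Pax7 in the AHRmKO-labelled library only, by intervals that did not overlap: it was seen in 18.5% (15.8 to 21.4) of AHRfl/fl-labelled nuclei with Pax7 and 14.4% (11.3 to 17.9) without, and in 2.03% (1.05 to 3.52) and 6.63% (4.29 to 9.70) of AHRmKO-labelled ones.

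Myod1, Myog and the fusion genes occurred together over the line. Myog was seen in 28.2% (25.8 to 30.7) and 20.2% (17.4 to 23.4) of nuclei with Myod1 and 23.4% and 8.29% of those without. Mymk was seen in 34.7% (32.5 to 36.9) and 32.2% (27.9 to 36.8) of nuclei with Myog and 24.7% and 16.2% of those without, while in macrophage-like nuclei of the AHRfl/fl-labelled library the same shares were 20.0% and 19.1%. Either fusion gene was seen in 41.6% (39.3 to 43.8) and 36.5% (32.0 to 41.2) of nuclei with Myog. These became 64.0% and 61.2% without thinning, and 14.5% and 9.23% when 2 UMIs were asked of each gene, an alternative chosen after the data were seen.

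Within classes the pairing was seen in some and not in others. In differentiating nuclei of the AHRfl/fl-labelled library Myog was seen in 42.1% of nuclei with Myod1 and 42.4% without, and Mymk in 48.9% of nuclei with Myog and 45.0% without, with overlapping intervals. In the AHRmKO-labelled library Myog was seen in 28.6% (23.5 to 34.1) with Myod1 and 19.9% (16.9 to 23.3) without, which did not overlap, and Mymk in 37.1% with Myog and 33.2% without, which did. In immature nuclei of the AHRfl/fl-labelled library Mymk was seen in 40.3% (36.5 to 44.2) of nuclei with Myog and 33.3% (31.2 to 35.5) without.

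**Figure D5:**
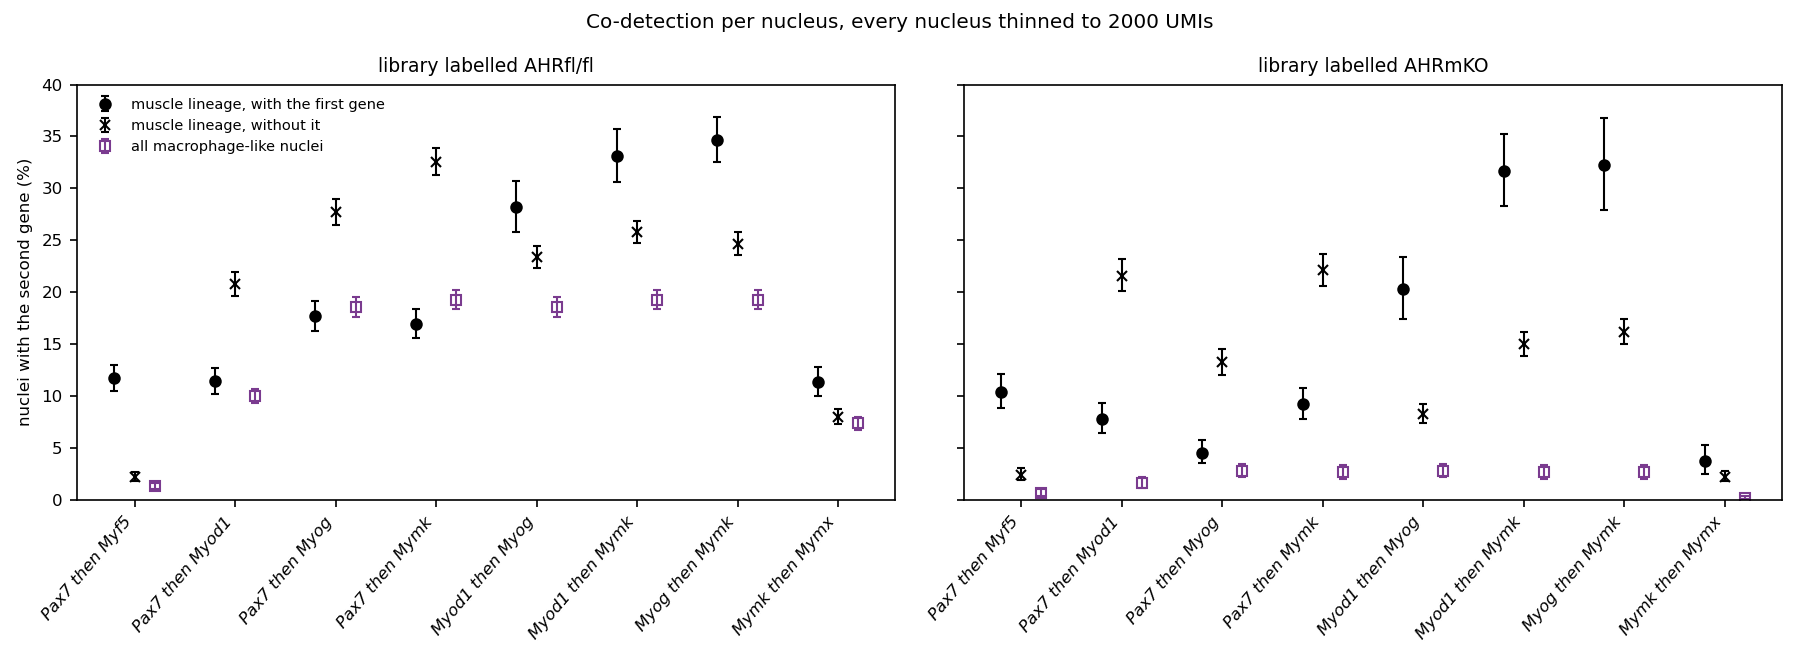
Percent of nuclei with the second gene of each pair (vertical axis) among muscle-line nuclei with the first gene (filled circles), among those without it (crosses) and among all macrophage-like nuclei (open squares), every nucleus thinned to 2000 UMIs, with exact 95% binomial intervals. Pax7 then Myf5 is higher with the first gene in both libraries (11.7% and 10.4%), Pax7 then Myod1, Myog or Mymk lower, and Myog then Mymk higher (34.7% and 32.2%); the squares for Myog and Mymk are at 18.6% and 19.3% in the AHRfl/fl-labelled library and at 2.74% and 2.62% in the other.

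Read as states, nuclei with Pax7 and none of Myod1, Myog, Mymk or Mymx made up 20.3% and 27.2% of the muscle line. Of these, 34.5% (32.2 to 36.9) and 51.8% (48.8 to 54.7) held at least 2 UMIs of 10 cell cycle genes, where macrophage-like nuclei gave 17.8% and 29.8%, so the cycling share differed between the libraries in both kinds of nuclei. Nuclei with Myog and a fusion gene and no Pax7 were 8.43% and 3.37% of the line and had a median contractile share of 2.88% and 6.53%. Of them, 8.31% and 9.72% held the cell cycle genes. Nuclei with Myod1 and neither Pax7 nor Myog were 9.44% and 11.4% of the line, 12.8% and 13.8% of them with cell cycle genes. None of the 7 was seen in 22.3% and 35.7%. Myog and Mymk were also seen in 18.6% and 19.3% of AHRfl/fl-labelled macrophage-like nuclei, and the part of free RNA in these states was not tested.

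Over the 28 sums of cluster and library with at least 50 nuclei, Myog and Mymx had Pearson's r = 0.963, Myog and Mymk 0.933, Mymk and Mymx 0.913 and Pax7 and Myf5 0.907, while Myf6 was at 0.00 with Mymk and 0.24 with Myog. Of 14794 other genes compared, those most like Pax7 were Lix1, Lgr5 (0.941), a receptor for R-spondins, and Gm45004. Lgr5 (0.931) was also among those most like Myf5, after Dmrt2 (0.940) and before Metap2. Tnnt2 (0.942) and Tnnt1 (0.934), 2 troponin T genes, and Psmc3, a proteasome subunit, were most like Myod1. Cd164 (0.936), Chrna1 (0.930), a subunit of the muscle acetylcholine receptor, and Mylpf (0.930), a fast myosin light chain, were most like Myog. Acta2 (0.959), Cd164 and Chrna1 were most like Mymk, and Actc1 (0.941), the cardiac actin of developing muscle, Fitm1 and Ppib most like Mymx. Ppp1r27 (0.974), Gm41757 and Hspb7 (0.947), a small heat shock protein, were most like Myf6. The sums share 2 libraries and their free RNA, so these values are descriptions.

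The genes that work with the members were followed from fixed lists in all satellite-like nuclei, several of which also served as class markers. Over all genes there, 15.9% were at least 2-fold lower and 5.16% higher. Of 12 partners of the myogenic factors (E proteins, MEF2 factors and others), none was past 2-fold in either direction, and their median log2 ratio was -0.25. Tcf12, an E protein, was at 1533 and 1060.2 CPM and Mef2c at 86.2 and 48.2. Tcf3, another E protein, was at 50.9 and 72.4 and Mef2d at 149 and 161. Mef2c was far higher later in the line, at 736 and 344 in differentiating and 2225 and 1244 in immature nuclei, the lower value in the AHRmKO-labelled library each time, and at 525 and 316 in macrophage-like nuclei.

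Of 16 inhibitors, 13 had enough UMIs and 2 were at least 2-fold lower, a share near that of all genes, with a median of -0.28. These were Id3, which ties up E proteins, at 93.8 and 34.8, and Msc (musculin), at 39.5 and 18.8, against macrophage levels of 20.8 and 2.90 and of 2.75 and 0.854. Snai1 (7.52 and 10.1) and Snai2 (15.9 and 20.7), zinc finger repressors at E-boxes, had the highest ratios. Of 12 further satellite cell genes, 1 was at least 2-fold higher, the imprinted gene Peg3 (978 and 2404), and 1 lower, the calcitonin receptor Calcr (25.5 and 5.71), a marker of quiescence, with a median of -0.43. Pax3, the relative of Pax7, was at 43.1 and 22.0 and the growth factor receptor Fgfr4 at 634 and 698.

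Of 23 genes of adhesion and fusion other than Mymk and Mymx, 20 had enough UMIs, none was higher and 2 were lower, with a median of -0.09. These were the caveolin Cav3, at 20.7 and 4.19 beside 21.8 and 3.59 in macrophage-like nuclei, and the adhesion molecule Jam2, at 15.5 and 7.34. The highest ratios were those of Arf6, a small GTPase (8.49 and 10.7), and Dock5, an exchange factor for Rac (12.97 and 16.3). Of 6 genes of cell cycle exit, Gadd45a was at least 2-fold higher (30.7 and 71.0). Cdkn1c, the p57 inhibitor, was at 167 and 86.6 in satellite-like nuclei and at 478 and 744 in differentiating ones. Cdkn1b was at 43.2 and 61.5 and Cdkn1a at 102 and 69.3 in satellite-like nuclei. In macrophage-like nuclei Cdkn1c was at 126 and 20.0, Cdkn1b at 57.4 and 81.2 and Cdkn1a at 84.8 and 26.1. Free RNA was not subtracted for these genes, so the direction for Cdkn1c and Cdkn1a in satellite-like nuclei was not settled.

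Among 17 early differentiation targets in satellite-like nuclei, 8 were at least 2-fold lower (15.9% of all genes) and none higher, with a median of -0.89 beside -1.95 in macrophage-like nuclei. The lowest were Mylpf, at 355 and 21.3 beside a macrophage level of 438 and 18.1, and Actc1, at 225 and 13.7 beside 291 and 18.2, so both were under their macrophage level in the AHRfl/fl-labelled library. The highest were Dok7 (28.7 and 46.0), a protein of the neuromuscular junction, and Chrng (92.7 and 107), the fetal acetylcholine receptor subunit. In differentiating nuclei 2 were lower (13.2% of all genes) and none higher (median -0.09), and in immature nuclei 1 was lower (17.2% of all genes) and 2 higher (5.44%), with a median of 0.37 beside -0.68 for the members. In myofibre-like nuclei 14 were lower (16.8% of all genes) and none higher (median -1.95, beside -1.95 in macrophage-like nuclei).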

How the data were processed

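The deposited files hold raw UMI counts per gene and barcode, made by the authors with Cell Ranger 7.0.1 on mm10, per the submitters' processing notes; the matrix header names another release, and intron and strand settings are not given in the sources used here. Nuclei were isolated and sequenced with 10x Chromium 3′ kits, per the labels' protocols. Barcodes with at least 2000 UMIs and at most 10% mitochondrial UMIs were kept, and the top Scrublet scores (1358 and 250 barcodes) were left out. Both libraries were clustered together with scanpy 1.11.5 (2000 variable genes without the members, 30 principal components, 15 neighbours, Leiden resolution 1) and named from marker lists. The thresholds that leave a cluster unnamed were set after the data were seen. Members and gene lists were chosen with earlier results of these data known. The text names the members, up to 2 genes with the lowest and 2 with the highest satellite ratio of each list, and the 3 genes most like each member. Levels (CPM) are UMIs of a gene per 1000000 UMIs of the class. With 1 library per group no test was run: intervals are exact Poisson, binomial or conditional binomial at 95%, for counting error only. Co-detection used nuclei thinned to 2000 UMIs. Genes were compared between libraries from 30 UMIs in both together. The log2 ratio and the 2-fold rule were tested on simulated class sums, and the other steps were not tested in that way.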

Additional observations from a re-analysis of the deposited data

How the results depend on the processing

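No paired analysis was possible because each group is 1 library. Of 532 values under other settings, over 49 log2 ratios of the members, 36 turned direction, in 25 of the ratios, counting only ratios whose interval excluded 0; the cause was not tested. Ratios near 0 changed sign more freely: Myf5 outside the cycle was below 0 in 6 of 11 alternatives, Myod1 in the whole line in 5, Pax7 in immature nuclei in 3 (to -1.87) and Myod1 in differentiating nuclei in 2. With free RNA subtracted, the ratios counted as turned were Mymk 2.997 and Mymx 2.36 outside the cycle. In cycling satellite-like nuclei they were Myod1 3.46, Myf6 1.33 and Mymk 4.84. In all satellite-like nuclei they were Myod1 1.06, Myf6 0.86, Mymk 4.67 and Mymx 1.40, and in immature nuclei Myf5 2.17, Myog 0.49, Mymk 0.75 and Mymx 0.78. In myofibre-like nuclei they were Pax7 -4.12 and Mymx 0.26, and in the whole line Myog 0.092, Mymk 0.66 and Mymx 0.70. Net levels under 0 were set to 0. The AHRmKO-labelled net level was within counting error of 0 for Myf6 in cycling and in all satellite-like nuclei. That was also so for Mymx in all satellite-like nuclei and for Pax7 and Mymx in myofibre-like nuclei. In differentiating nuclei Pax7 turned with minimums of 1000 UMIs (-0.071) and 4000 UMIs (-0.37) and no mitochondrial limit (-0.58), and Mymk with 3 times as many doublets left out (0.078) and classes per nucleus from markers (0.13). In immature nuclei Myod1 turned with a minimum of 1000 UMIs (-2.06), no doublet removal (-7.81) and 3 times the doublets (-0.10), Myf6 with 3 times the doublets (0.042), Myf5 with no doublet removal (2.22) and Mymk at resolution 0.5 (0.082). In myofibre-like nuclei Myod1 and Mymk turned with a minimum of 1000 UMIs (0.051 and 0.36) and no doublet removal (0.49 and 0.67), and Pax7 with each library clustered alone (-4.26). Pax7 in all satellite-like nuclei turned with libraries clustered alone (-0.15) and at resolution 0.5 (-0.13), but within each state of the cycle its ratio was above 0 in every alternative.

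The share of nuclei with Myog that held a fusion gene moved to 39.0% with a mitochondrial limit of 5%, 64.0% unthinned and 14.5% at 2 or more UMIs per gene in the AHRfl/fl-labelled library, and to 30.9% clustered alone, 61.2% unthinned and 9.23% at 2 or more UMIs in the AHRmKO-labelled library. Nuclei with Pax7 that held Myog moved to 16.0% with a minimum of 4000 UMIs, 33.9% unthinned and 0.957% at 2 or more UMIs in the former, and to 12.8% unthinned and 0.119% at 2 or more UMIs in the latter. Detection at 2 or more UMIs was chosen after the data were seen. Clustered alone, the AHRfl/fl-labelled library had 0 cycling satellite-like nuclei and gave no value for that class. The depth limits Myf6 outside fibres and Mymx in the AHRmKO-labelled library, which rest on few UMIs.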
